A study of Neotoma stephensi and Rattus norvegicus with 6 samples.

Results

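Glutathione, thioredoxin and antioxidant defence genes were examined as a group of 46 mouse gene symbols, listed by name and role, with no measured value in the rule. All 46 were among the 15481 genes of the count files, and all 46 were among the 12603 genes with enough reads to be tested. The study sequenced mRNA from the foregut (fornix ventricularis of the stomach) of 3 Stephens' woodrats, *Neotoma stephensi*, and 3 Sprague Dawley lab rats, *Rattus norvegicus*, to ask which transcripts go with harboring a dense foregut microbial community. All animals were female and are called virgin in the sample labels, although the study's methods leave this open for the woodrats, and no ages are given. The woodrats were caught in the wild and ate juniper foliage until dissection the next day, whereas the purchased lab rats had been kept on standard chow for months, so that species, diet, origin and microbes cannot be told apart in this comparison.

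Cells remove oxidants through a few linked systems. Superoxide dismutases turn superoxide into hydrogen peroxide, and catalase, glutathione peroxidases and peroxiredoxins remove the peroxide. Glutathione and thioredoxin supply the electrons, which come in turn from NADPH, and the transcription factor Nrf2, held back by *Keap1*, drives many of these genes. In squamous epithelia such as the rodent forestomach, these systems are known for their part in the defence of a surface exposed to food and microbes.

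Each value is the read count of a gene as CPM, the count relative to the library total after scaling between libraries with TMM factors. It comes from between 5439642 and 7932637 counted reads per animal, in which 3 reads corresponded to between 0.355 and 0.586 CPM. Each of the 46 genes had between 13 and 18513 reads in every animal. Log2 fold changes are woodrats over lab rats, given with their standard error (SE), and a gene was called at a false discovery rate (FDR, Benjamini-Hochberg over all 12603 genes) below 0.01 in edgeR's quasi-likelihood test. Reads of both species were aligned to mouse coding transcripts, so a level also depends on how well each species' reads could be assigned to the mouse gene. The count files list no gene without woodrat reads. Over all 6 animals, markers of squamous epithelium summed to between 16290 and 41594 CPM. Those of gastric glands (7 of 10 in the files) summed to between 7.32 and 12.9 CPM, which matches the labelled nonglandular tissue. The gland marker *Muc5ac* had 17, 12 and 33 reads in woodrats and 0 in each lab rat. Of the squamous markers, *Krt4* was called higher in woodrats (log2 fold change 3.34), and *Krtdap* (-2.49) and *Ivl* (-4.96) were called lower. The other squamous markers were not called, and scaling to their sum depends on its make-up. The 8 smooth muscle markers in the files (of 10) summed to between 40176 and 123550 CPM in woodrats and between 10724 and 19475 CPM in lab rats. Leukocyte markers (7 of 8 in the files) summed to between 14.5 and 41.9 CPM in woodrats and between 197 and 303 CPM in lab rats. Most of that lab rat sum was *Cd74*, at 225, 154 and 270 CPM. *Cd74*, *Ptprc*, *Cd3e*, *Itgam* and *Csf1r* were each higher in every lab rat, *Cd68* overlapped, and *Cd79a*, with few reads, was higher in every woodrat. Erythroid markers (4 of 6 in the files) summed to between 12.0 and 36.1 CPM in woodrats against between 253 and 497 CPM in lab rats. Fibroblast markers summed to between 1055 and 2532 CPM in woodrats and between 2004 and 2581 CPM in lab rats, and endothelial markers to between 51.4 and 100.1 CPM and between 97.3 and 109 CPM, so both overlapped. In such bulk tissue, fewer cells of a type and less RNA per cell cannot be told apart. Lab rat 3 was the highest of the lab rats for 33 of the 46 genes, against 40.5% of all genes tested, and woodrat 1 was the lowest of the woodrats for 23, against 39.1%.

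Of the 46 genes, 4 were higher in woodrats (*Gpx3*, *Msrb3*, *Mt1* and *Blvra*), 3 were lower (*Msra*, *Glrx3* and *Sod2*) and 39 did not pass the threshold. These 7 calls are 15.2% of the group, whereas 20.0% of all genes tested were called. Higher calls made up 10.3% of all genes tested and lower calls 9.71%. At an FDR below 0.05 the group held 20 genes (43.5%), against 39.9% of all genes tested. Of these, 7 were higher (15.2% of the group, against 21.0% of all genes tested) and 13 lower (28.3%, against 18.9%). The median log2 fold change of the 46 genes was -0.10, against 0.03 over all genes tested, and the median size was 0.89, against 0.82. At an FDR below 0.01 the share of called genes was thus below that of all genes in both directions, and at an FDR below 0.05 it was below for higher and above for lower genes. DESeq2 called 7 of the 46 genes higher and 10 lower at an FDR below 0.01, where it called 15.8% of all genes tested higher and 15.3% lower. An unadjusted p below 0.05 in edgeR, a count also given for some gene groups, was reached by 22 of the 46 genes and by 49.7% of all genes tested. In 9 genes every woodrat lay above every lab rat and in 13 every lab rat lay above every woodrat, or 47.8% of the group without overlap. Over all genes tested the share was 56.2%, with 28.8% higher in every woodrat and 27.4% higher in every lab rat. For only 6 of the 46 genes did the 95% interval of the log2 fold change lie wholly between -1 and 1.

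**Figure D1:**
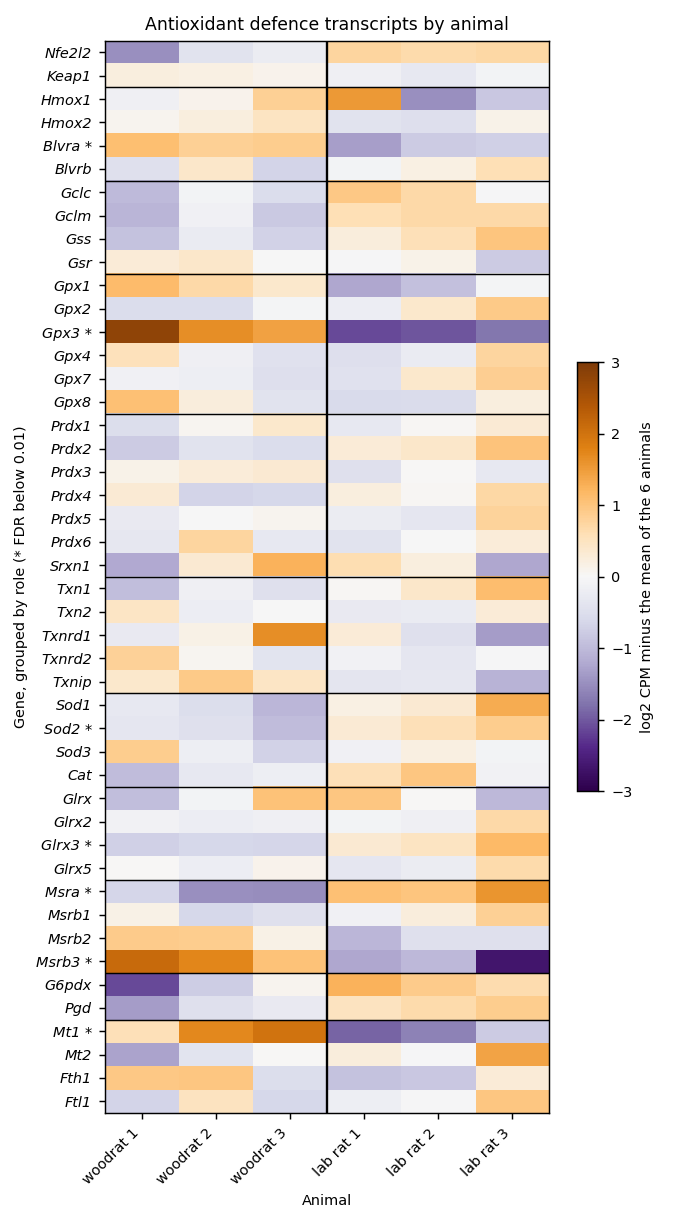
Level of each of the 46 genes (rows, grouped by role) in each of the 6 animals (columns), as log2 CPM minus the mean of the 6 animals, with the genes at an FDR below 0.01 marked by an asterisk. *Gpx3* and *Msrb3* are orange in the woodrats and purple in the lab rats, and most rows differ by less.

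**Figure D2:**
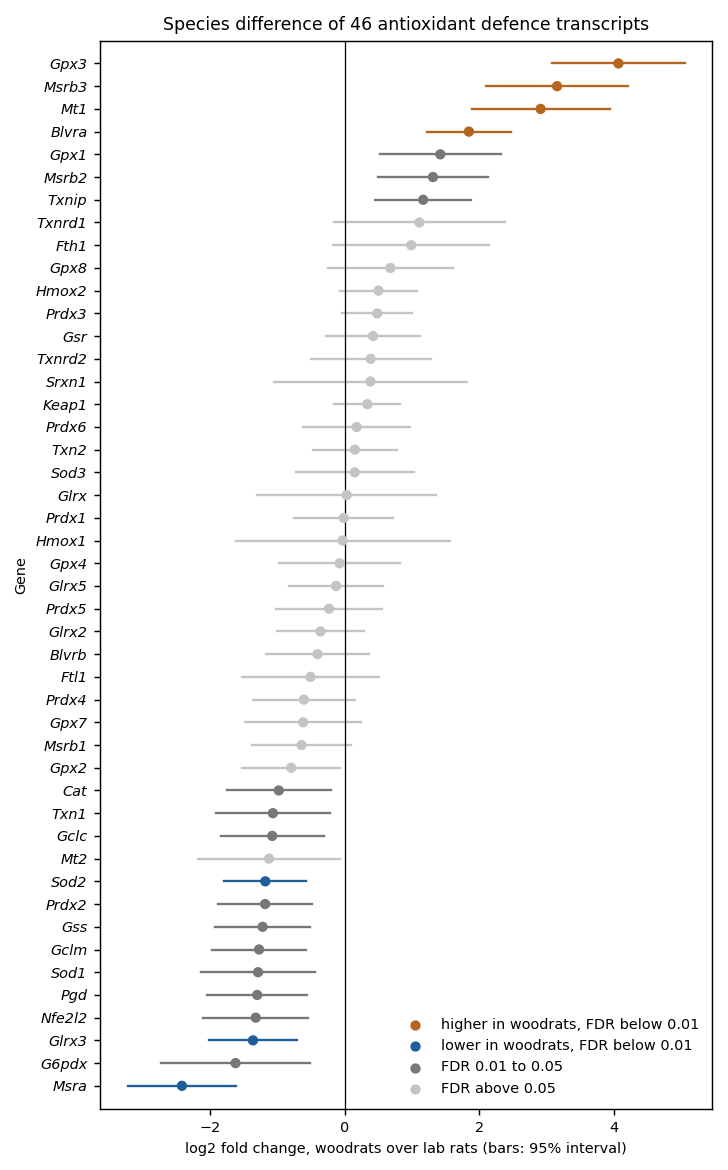
Log2 fold change of each gene (woodrats over lab rats, point) with its 95% interval (bar), ordered by value and coloured by FDR class. The values run from -2.42 for *Msra* to 4.07 for *Gpx3*.

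The glutathione peroxidases reduce peroxides with glutathione, and 1 of the 6 was called, higher in woodrats (16.7%, against 10.3% of all genes tested). *Gpx3*, the secreted plasma form (ENSMUSG00000018339.10), had 804, 362 and 313 CPM in woodrats 1, 2 and 3 and 26.2, 28.0 and 33.9 CPM in lab rats 1, 2 and 3. The lowest woodrat was far above the highest lab rat. The mean values were 493 ± 270 CPM (SD, n = 3) and 29.3 ± 4.0 CPM (SD, n = 3), a 16.8-fold difference and a log2 fold change of 4.07 (SE 0.43, edgeR FDR = 0.000638). It ranked 211 from the top by log2 fold change among the 12603 genes tested. It stayed below an FDR of 0.01 whichever of the 6 animals was left out, with log2 fold changes between 3.52 and 4.31. Woodrat 1, with the most *Gpx3*, also had the most smooth muscle marker reads. Per 1000 CPM of smooth muscle markers, *Gpx3* was at 6.51, 6.07 and 7.78 in woodrats against 2.44, 1.55 and 1.74 in lab rats. The species did not overlap on that scale either, at a log2 ratio of means of 1.83. Per 1000 CPM of squamous epithelium markers all woodrats were again above all lab rats, at a log2 ratio of means of 4.33.

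The near relatives *Gpx5* and *Gpx6*, known for expression in the epididymis and the olfactory epithelium, moved with *Gpx3*. *Gpx5* had 471, 272 and 305 reads in woodrats against 17, 10 and 3 in lab rats, and *Gpx6* had 251, 139 and 155 reads in woodrats against 18, 16 and 24 in lab rats. *Gpx3* took between 85.1% and 86.4% of the summed CPM of these 3 genes in woodrats and between 85.8% and 86.7% in lab rats. The share of *Gpx3* thus stayed nearly the same in all 6 animals while the sum changed from 945 CPM in woodrat 1 to 30.5 CPM in lab rat 1. Whether reads of one of these genes were counted under another was not tested. With the 3 genes summed before the fit, a setting chosen after seeing the data, the log2 fold change was 4.09 (FDR = 0.000658).

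*Gpx1*, the abundant cytosolic form (ENSMUSG00000063856.7), had 1423, 1052 and 854 CPM in woodrats and 275, 343 and 625 CPM in lab rats. All woodrats were above all lab rats, but lab rat 3 lay close to them. Its log2 fold change was 1.42 (SE 0.39) and its FDR of 0.0214 missed the threshold, while DESeq2 gave an FDR of 0.00269. The species overlapped per 1000 CPM of smooth muscle markers, where the log2 ratio of means was -0.61. Per 1000 CPM of squamous epithelium markers they did not overlap, with woodrats above at a log2 ratio of means of 1.63. *Gpx2*, the gastrointestinal form, had 45.1, 45.1 and 63.1 CPM in woodrats and 57.1, 85.4 and 124 CPM in lab rats, with overlap (log2 fold change -0.80, FDR = 0.0780). *Gpx4*, which reduces lipid peroxides in membranes, had 241, 148 and 122 CPM in woodrats and 119, 139 and 280 CPM in lab rats. Its log2 fold change of -0.08 had a 95% interval from -0.98 to 0.83, and it became 0.40 without lab rat 3. *Gpx7* and *Gpx8*, both of the endoplasmic reticulum, had log2 fold changes of -0.62 (FDR = 0.222) and 0.68 (FDR = 0.212).

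The methionine sulfoxide reductases, which repair oxidized methionine, had 1 of 4 genes called lower (25%, against 9.71% of all genes tested). Another 1 was called higher (25%, against 10.3%). *Msra*, which reduces the S form of methionine sulfoxide (ENSMUSG00000054733.8), had 8.20, 4.58 and 4.50 CPM in woodrats and 27.2, 25.8 and 38.9 CPM in lab rats. Every lab rat was above every woodrat, and the means of 5.76 ± 2.11 CPM (SD, n = 3) and 30.6 ± 7.2 CPM (SD, n = 3) gave a log2 fold change of -2.42 (SE 0.35, edgeR FDR = 0.00174). It was 5.36-fold higher in lab rats. Without woodrat 2 the FDR was 0.0107, and the other 5 fits that left out 1 animal stayed below 0.01.

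*Msrb3*, which reduces the R form in the endoplasmic reticulum and mitochondria (ENSMUSG00000051236.12), had 163, 125 and 77.2 CPM in woodrats and 16.1, 18.5 and 5.97 CPM in lab rats. The woodrats were all above the lab rats, with means of 122 ± 43 CPM (SD, n = 3) and 13.5 ± 6.7 CPM (SD, n = 3). Woodrats over lab rats, the log2 value was 3.16 (SE 0.46, edgeR FDR = 0.00177), a difference of 8.93-fold, and each fit that left out 1 animal kept the call. Its order among the woodrats was that of the smooth muscle markers, with woodrat 1 highest and woodrat 3 lowest. Among the lab rats it was not, as lab rat 3 had the most smooth muscle marker reads and the least *Msrb3*. Per 1000 CPM of smooth muscle markers, *Msrb3* was at 1.32, 2.10 and 1.92 in woodrats against 1.50, 1.02 and 0.307 in lab rats. On that scale the species overlapped. Per 1000 CPM of squamous epithelium markers every woodrat lay above every lab rat, at a log2 ratio of means of 3.19. *Msrb2*, the mitochondrial form, had 12.3, 12.2 and 7.34 CPM in woodrats and 3.23, 4.80 and 4.82 CPM in lab rats. It did not overlap between the species but missed the threshold (log2 fold change 1.31, SE 0.36, edgeR FDR = 0.0211). Per 1000 CPM of smooth muscle markers it was higher in every lab rat, at a log2 ratio of means of -0.74. Per 1000 CPM of squamous epithelium markers the species overlapped, at a log2 ratio of means of 1.40. *Msrb1*, a selenoprotein of cytosol and nucleus, overlapped at a log2 fold change of -0.64 (FDR = 0.143).

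**Figure D3:**
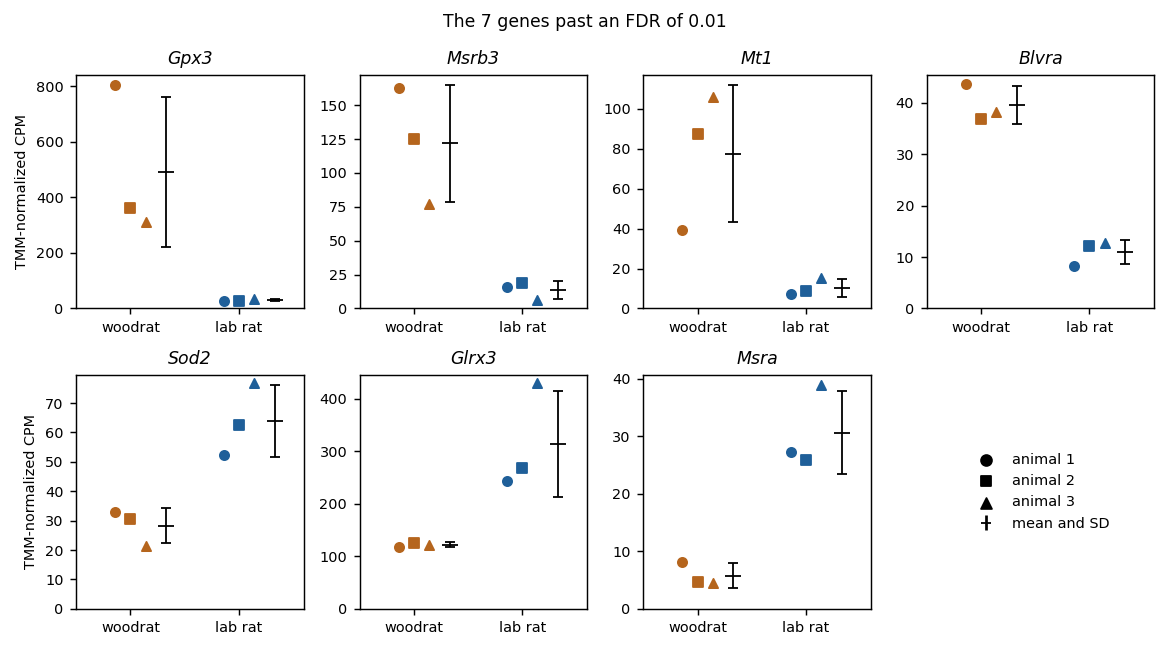
TMM-normalized CPM of the 7 genes at an FDR below 0.01, each on its own axis from 0, with 1 symbol per animal and the mean and SD of the 3 animals beside it. The species do not overlap in any of the 7 panels.

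The metallothioneins are small cysteine-rich proteins that bind zinc and copper and scavenge oxidants. *Mt1* (ENSMUSG00000031765.7) had 39.3, 87.2 and 106 CPM in woodrats and 7.07, 8.60 and 15.4 CPM in lab rats. No lab rat reached the lowest woodrat, and the log2 fold change was 2.91 (SE 0.45, edgeR FDR = 0.00221), or 7.53-fold. Per 1000 CPM of smooth muscle markers the species overlapped, at a log2 ratio of means of 1.20. Per 1000 CPM of squamous epithelium markers *Mt1* was at 2.41, 2.62 and 2.55 in woodrats against 0.322, 0.376 and 0.429 in lab rats. There the species did not overlap, at a log2 ratio of means of 2.75. Without lab rat 1 the FDR of *Mt1* was 0.0101 and without lab rat 2 it was 0.0113. *Mt2* (ENSMUSG00000031762.6) went the other way, with 8.01, 14.9 and 19.7 CPM in woodrats and 23.0, 19.0 and 51.6 CPM in lab rats, which overlapped narrowly (log2 fold change -1.12, FDR = 0.0841).

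*Mt1* and *Mt2* encode very similar short proteins, and whether reads of one were counted under the other was not tested. *Mt1* took 83.1%, 85.4% and 84.3% of the summed CPM of the pair in the woodrats, but 23.6%, 31.1% and 23.0% in the lab rats. The split was thus nearly constant within each species and reversed between them. The sum was 47.3, 102 and 126 CPM in woodrats and 30.0, 27.6 and 67.0 CPM in lab rats, with lab rat 3 above woodrat 1. Its log2 fold change was 1.15 (SE 0.45, edgeR FDR = 0.0733), so the call for *Mt1* did not hold for *Mt1* and *Mt2* as a pair. *Mt4*, from the further lists below, was more abundant than the pair in every animal. It had 712, 834 and 1163 CPM in woodrats and 888, 929 and 1862 CPM in lab rats. The species overlapped for *Mt4* (log2 fold change -0.44, edgeR FDR = 0.395).

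**Figure D4:**
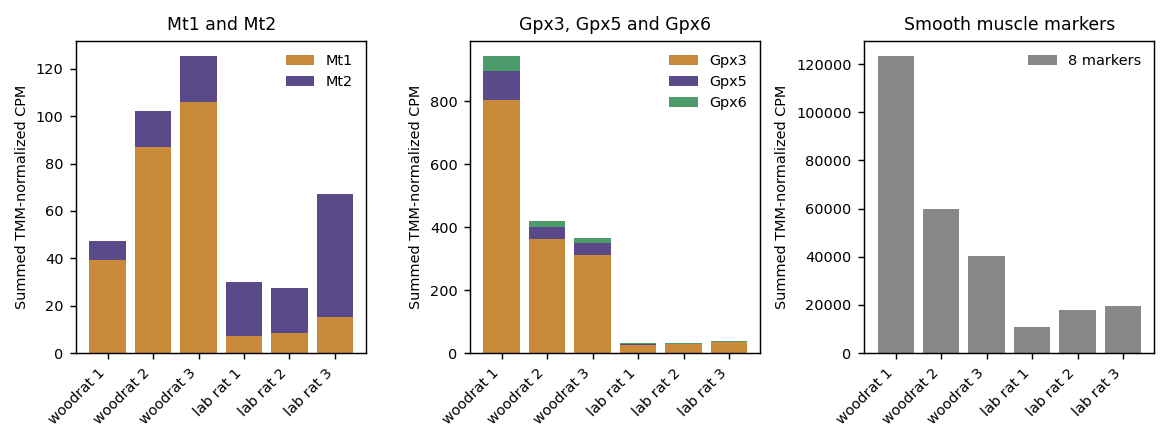
Stacked bars of TMM-normalized CPM per animal for *Mt1* and *Mt2* (left) and for *Gpx3*, *Gpx5* and *Gpx6* (middle), and the summed CPM of 8 smooth muscle markers (right). The share of *Mt1* falls from about 84.3% in woodrat 3 to 23.0% in lab rat 3, whereas the share of *Gpx3* is near 86% throughout, and woodrat 1 has the tallest bar for both *Gpx3* and smooth muscle.

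Ferritin stores iron in a shell of heavy and light chains, which keeps it from producing radicals. *Fth1*, the heavy chain, had 2530, 2570 and 913 CPM in woodrats and 698, 737 and 1594 CPM in lab rats. Woodrat 3 lay below lab rat 3, so the species overlapped (log2 fold change 0.99, FDR = 0.153). *Ftl1*, the light chain, had 336, 758 and 347 CPM in woodrats and 472, 524 and 1055 CPM in lab rats (log2 fold change -0.51, FDR = 0.391). The log2 ratio of *Fth1* to *Ftl1* reads was 2.91, 1.76 and 1.40 in woodrats against 0.57, 0.49 and 0.60 in lab rats, without overlap. Summed, the chains gave a log2 fold change of 0.55 (FDR = 0.396).

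Heme breakdown releases iron, carbon monoxide and biliverdin, which biliverdin reductases turn into the antioxidant bilirubin. *Blvra*, biliverdin reductase A (ENSMUSG00000001999.14), had 43.8, 36.8 and 38.3 CPM in woodrats and 8.31, 12.1 and 12.7 CPM in lab rats. All woodrats were above all lab rats, and its log2 fold change was 1.85 (SE 0.27, edgeR FDR = 0.00184), or 3.60-fold. All 6 fits that left out 1 animal kept it called. Per 1000 CPM of smooth muscle markers, however, *Blvra* was at 0.354, 0.616 and 0.952 in woodrats against 0.775, 0.668 and 0.653 in lab rats. The species overlapped on that scale and the direction turned, at a log2 ratio of means of -0.12. Per 1000 CPM of squamous epithelium markers every woodrat lay above every lab rat, at a log2 ratio of means of 1.90. *Blvrb*, which is abundant in red cells, had 76.6, 140 and 66.2 CPM in woodrats and 99.4, 118 and 157 CPM in lab rats, with overlap (log2 fold change -0.40, FDR = 0.362). *Hmox1*, the inducible heme oxygenase and a classical Nrf2 target, had 24.6, 29.4 and 48.4 CPM in woodrats and 79.4, 9.76 and 15.2 CPM in lab rats. Lab rat 1 stood apart from the other lab rats, and the log2 fold change of -0.03 became 1.46 (FDR = 0.0381) without it. *Hmox2*, the constitutive form, had 72.5, 80.2 and 96.1 CPM in woodrats and 52.1, 49.0 and 74.7 CPM in lab rats (log2 fold change 0.50, FDR = 0.146).

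The gene for Nrf2 itself, *Nfe2l2* (ENSMUSG00000015839.6), had 73.0, 155 and 176 CPM in woodrats and 346, 326 and 339 CPM in lab rats. The lab rats were close together and the highest woodrat was well below the lowest of them. The means were 135 ± 54 CPM (SD, n = 3) and 337 ± 10 CPM (SD, n = 3), and the log2 fold change of -1.32 (SE 0.34) had an FDR of 0.0167, above the threshold in edgeR, and of 0.000979 in DESeq2. *Keap1*, which marks Nrf2 for degradation, had 40.8, 39.7 and 37.8 CPM in woodrats and 31.8, 28.8 and 33.1 CPM in lab rats. The woodrats lay above the lab rats by a small margin (log2 fold change 0.34, FDR = 0.240). Per 1000 CPM of smooth muscle markers *Keap1* was instead higher in every lab rat, at a log2 ratio of means of -1.69. Per 1000 CPM of squamous epithelium markers the species overlapped for it, at 0.34.

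Glutathione is made by glutamate-cysteine ligase, with a catalytic chain (*Gclc*) and a modifier chain (*Gclm*), and glutathione synthetase (*Gss*), and is recycled by glutathione reductase (*Gsr*). *Gclc* had 34.0, 64.1 and 46.9 CPM in woodrats and 130, 110 and 66.3 CPM in lab rats. *Gclm* had 8.98, 17.1 and 10.7 CPM in woodrats and 28.4, 30.3 and 30.4 CPM in lab rats. *Gss* had 10.9, 17.3 and 12.7 CPM in woodrats and 24.4, 30.4 and 41.0 CPM in lab rats. Every lab rat was above every woodrat for all 3 of them, and for 27.4% of all genes tested. The 3 log2 fold changes were -1.08, -1.27 and -1.22 with FDR values of 0.0327, 0.0122 and 0.0152, so none was called by edgeR. All 3 had an unadjusted p below 0.05 in edgeR, as did 49.7% of all genes tested, and DESeq2 called *Gclm* and *Gss*. Per 1000 CPM of squamous epithelium markers *Gclc* overlapped, at a log2 ratio of means of -1.29. On that scale every lab rat stayed above every woodrat for *Gclm* and *Gss*. *Gsr* had 26.6, 29.1 and 21.8 CPM in woodrats and 21.2, 23.8 and 12.7 CPM in lab rats and overlapped (log2 fold change 0.42, FDR = 0.298).

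The NADPH for both systems comes largely from the pentose phosphate pathway. *G6pdx*, glucose-6-phosphate dehydrogenase, had 3.71, 9.58 and 17.2 CPM in woodrats and 39.0, 30.4 and 25.6 CPM in lab rats, and *Pgd*, the next dehydrogenase of that pathway, had 97.7, 181 and 206 CPM in woodrats and 353, 390 and 452 CPM in lab rats. Neither gene overlapped between the species, and woodrat 1 was lowest for both. The log2 fold changes were -1.62 (FDR = 0.0285) and -1.30 (FDR = 0.0145), and neither passed in edgeR, while both did in DESeq2. Without woodrat 3 the log2 fold change of *G6pdx* was -2.23 (FDR = 0.00573).

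**Figure D5:**
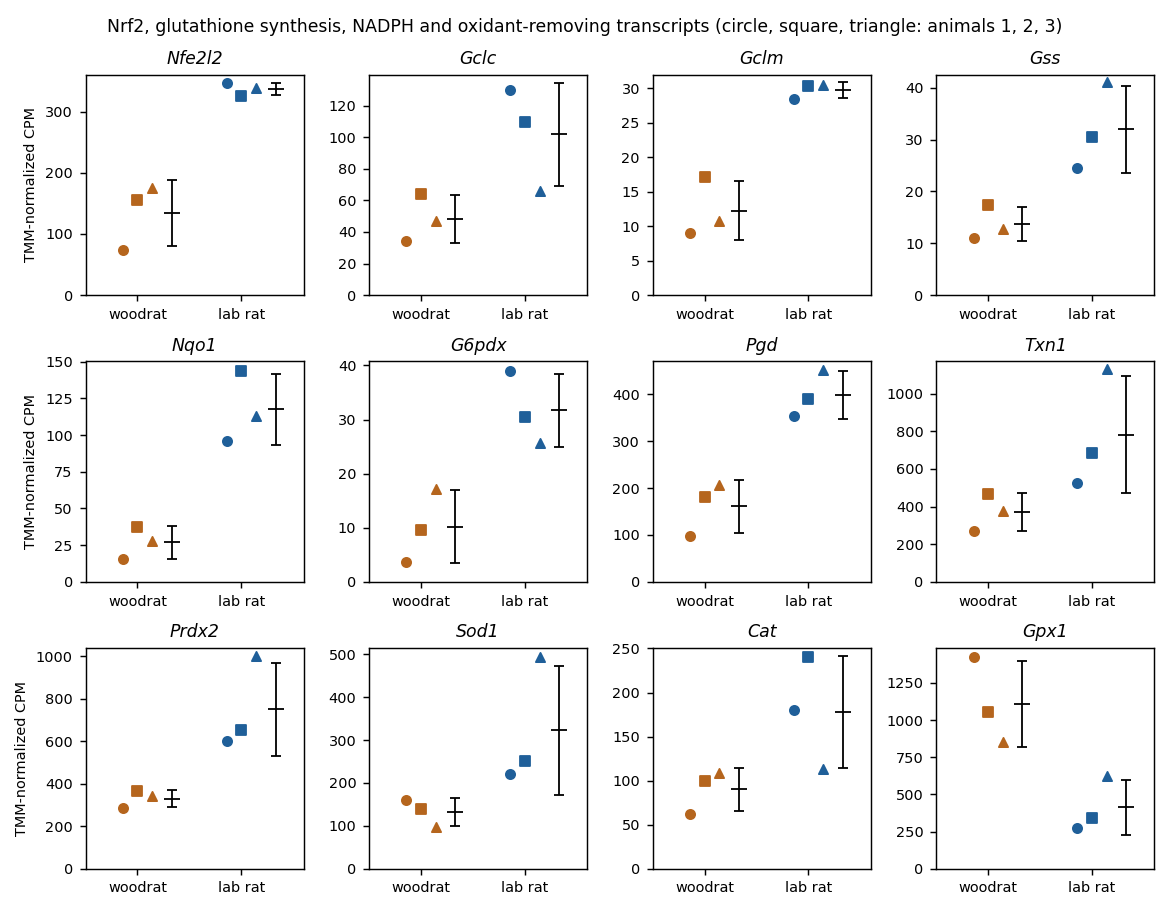
TMM-normalized CPM of 12 genes of Nrf2, glutathione synthesis, NADPH supply and oxidant removal, with 1 symbol per animal and the mean and SD of each species. Lab rats lie above woodrats for every gene shown except *Gpx1*, and of these genes only *Nqo1* passed an FDR of 0.01. The 12 genes are a selection. Among genes of these systems not shown, *Gsr*, *Prdx1* and *Hmox1* overlapped between the species, and *Keap1*, *Txnip* and *Ephx1* were higher in every woodrat.

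Of the superoxide dismutases and catalase, 1 of 4 genes was called, lower in woodrats (25%, against 9.71% of all genes tested). *Sod2*, the mitochondrial manganese enzyme (ENSMUSG00000006818.4), had 32.8, 30.4 and 21.4 CPM in woodrats and 52.2, 62.7 and 76.9 CPM in lab rats. The means were 28.2 ± 6.0 CPM (SD, n = 3) and 63.9 ± 12.4 CPM (SD, n = 3), a log2 fold change of -1.18 (SE 0.27, edgeR FDR = 0.00949). This call lay close to the threshold, and each of the 6 fits that left out 1 animal lost it, with FDR values from 0.0136 to 0.0339. *Sod1*, the cytosolic copper-zinc enzyme, had 160, 139 and 96.2 CPM in woodrats and 222, 251 and 494 CPM in lab rats (log2 fold change -1.29, FDR = 0.0244). *Cat*, which splits hydrogen peroxide in peroxisomes, had 62.5, 99.2 and 108 CPM in woodrats and 180, 240 and 113 CPM in lab rats (log2 fold change -0.98, FDR = 0.0483). The species did not overlap for either of these genes. Per 1000 CPM of squamous epithelium markers *Cat* overlapped, at a log2 ratio of means of -1.21. On that scale every lab rat stayed above every woodrat for *Sod1*. *Sod3*, the extracellular enzyme, had 93.6, 44.7 and 31.7 CPM in woodrats and 46.5, 58.1 and 48.3 CPM in lab rats, and its log2 fold change of 0.15 became -0.42 without woodrat 1.

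The peroxiredoxins reduce peroxides with thioredoxin and are in turn rescued from overoxidation by sulfiredoxin (*Srxn1*). *Prdx2*, the form most abundant in red cells, had 285, 366 and 340 CPM in woodrats and 601, 650 and 1001 CPM in lab rats. All lab rats were above all woodrats, at a log2 fold change of -1.18 (SE 0.31) and an FDR of 0.0164, above the edgeR threshold. Erythroid markers were also higher in lab rats by the amounts given above, and their part in this difference was not tested. *Prdx1*, its cytosolic relative, had 370, 540 and 684 CPM in woodrats and 423, 534 and 653 CPM in lab rats and gave a log2 fold change of -0.01 with a 95% interval from -0.75 to 0.72. The log2 ratio of *Prdx1* to *Prdx2* reads was 0.38, 0.56 and 1.01 in woodrats against -0.51, -0.28 and -0.62 in lab rats, without overlap, and their sum had a log2 fold change of -0.58 (FDR = 0.196). *Prdx3* of the mitochondrion had 45.7, 50.7 and 52.8 CPM in woodrats and 30.5, 42.2 and 34.1 CPM in lab rats, not overlapping but at an FDR of 0.124 (log2 fold change 0.48). Per 1000 CPM of smooth muscle markers it was higher in every lab rat, at a log2 ratio of means of -1.45. Per 1000 CPM of squamous epithelium markers it overlapped, at 0.42. *Prdx4*, *Prdx5*, *Prdx6* and *Srxn1* all overlapped, with log2 fold changes between -0.61 and 0.38 and FDR values from 0.179 to 0.713. Of these 7 genes edgeR called 0. An unadjusted p below 0.05 in edgeR was reached by *Prdx2* alone (14.3%, against 49.7% of all genes tested), and DESeq2 called that one.

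Thioredoxin (*Txn1*) passes electrons from thioredoxin reductase (*Txnrd1*) to the peroxiredoxins and is inhibited by *Txnip*, a glucose-responsive binding protein. *Txn1* had 270, 468 and 379 CPM in woodrats and 528, 686 and 1129 CPM in lab rats, without overlap (log2 fold change -1.07, FDR = 0.0485). *Txnip* had 411, 595 and 428 CPM in woodrats and 244, 249 and 146 CPM in lab rats, also without overlap but in the other direction (log2 fold change 1.17, SE 0.31, edgeR FDR = 0.0189). The species overlapped per 1000 CPM of smooth muscle markers, where the log2 ratio of means was -0.88. They also overlapped per 1000 CPM of squamous epithelium markers, where it was 1.03. *Txnrd1* had 26.6, 35.5 and 100 CPM in woodrats and 39.1, 23.3 and 12.7 CPM in lab rats. Its log2 fold change of 1.11 rested largely on woodrat 3, without which it was 0.30. The mitochondrial pair *Txn2* and *Txnrd2* overlapped, with log2 fold changes of 0.15 (FDR = 0.688) and 0.39 (FDR = 0.457). In edgeR 0 of the 5 genes was called, 2 had an unadjusted p below 0.05 (40%, against 49.7% of all genes tested), and DESeq2 called *Txnip*.

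The glutaredoxins use glutathione to reduce disulfides or to carry iron-sulfur clusters. *Glrx3*, a cytosolic iron-sulfur carrier (ENSMUSG00000031068.7), had 117, 126 and 122 CPM in woodrats and 244, 268 and 430 CPM in lab rats. The woodrats differed little from one another, and the means of 122 ± 4 CPM (SD, n = 3) and 314 ± 101 CPM (SD, n = 3) gave a log2 fold change of -1.36 (SE 0.29, edgeR FDR = 0.00707). When single animals were left out, the fit without lab rat 3 kept the call (log2 fold change -1.07, FDR = 0.00926) and the other 5 had FDR values from 0.0141 to 0.0319. *Glrx*, the main cytosolic disulfide reductase, varied widely within both species, with 69.9, 128 and 277 CPM in woodrats and 262, 136 and 66.6 CPM in lab rats (log2 fold change 0.03, 95% interval from -1.30 to 1.36). *Glrx2* and *Glrx5* of the mitochondrion overlapped, with log2 fold changes of -0.36 (FDR = 0.333) and -0.13 (FDR = 0.765).

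The wider pathway was described with 8 lists of other redox genes, of which 123 of 126 genes were in the files and 116 were tested. Over these lists 11 genes were higher and 19 lower in woodrats, with a median log2 fold change of -0.42. The higher genes were 9.48% of the 116, near the 10.3% of all genes tested, and the lower genes 16.4%, against 9.71%. Among 13 further Nrf2 targets, 6 were lower (46.2%, against 9.71% of all genes tested) and 1 was higher (7.69%, against 10.3%). Their median log2 fold change was -1.05. The quinone reductase *Nqo1*, a widely used marker of Nrf2 activity, had 79, 269 and 234 reads in woodrats against 774, 869 and 585 in lab rats (log2 fold change -2.13, SE 0.35, edgeR FDR = 0.00275). *Gsta4*, a glutathione transferase for lipid aldehydes, had 11, 104 and 122 reads in woodrats against 1439, 1367 and 2025 in lab rats (log2 fold change -4.65, FDR = 0.00164). Its relatives share sequence, so its reads may be divided among them. The cystine importer *Slc7a11*, which feeds glutathione synthesis, was also called lower, with 1 read in the woodrats together and 13, 11 and 7 reads in lab rats. Counted among the 6, it reached 1 CPM in lab rats only, so it could only be called lower. The called gene that went up was the microsomal epoxide hydrolase *Ephx1*, with 673, 2033 and 1890 reads in woodrats against 188, 135 and 175 in lab rats (log2 fold change 3.01, FDR = 0.000849). Of 10 Nrf2 regulators, 2 were higher (20%, against 10.3% of all genes tested) and 0 lower. An unadjusted p below 0.05 in edgeR was reached by 5 of the 10 (50%, against 49.7% of all genes tested). DESeq2 called 3 higher and 1 lower, where it called 15.8% of all genes tested higher and 15.3% lower. The 2 genes called by edgeR were the small Maf partner *Maff* (log2 fold change 2.69, FDR = 0.00221) and the related factor *Nfe2l1* (log2 fold change 1.37, FDR = 0.00481).

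Of 8 tested genes of NADPH supply outside the 46, 5 were higher in woodrats (62.5%, against 10.3% of all genes tested). Only 1 was lower (12.5%, against 9.71%), and the median log2 fold change was 1.47. *Nnt*, the mitochondrial transhydrogenase, had 244, 160 and 102 CPM in woodrats and 29.0, 43.5 and 35.4 CPM in lab rats. Among woodrats, but not among lab rats, this was the order of the smooth muscle markers. Mitochondrially encoded genes also took a larger share of reads in woodrats (from 6.28% to 11.6%) than in lab rats (from 5.51% to 5.81%), and the part of either in these genes was not tested. The mean of *Nnt* was 169 ± 71 CPM (SD, n = 3) in woodrats against 36.0 ± 7.2 CPM (SD, n = 3) in lab rats (log2 fold change 2.23, FDR = 0.00245). *H6pd*, the hexose-6-phosphate dehydrogenase of the endoplasmic reticulum, was also higher (log2 fold change 2.08, FDR = 0.00604), as was the mitochondrial malic enzyme *Me3*, with 37, 60 and 21 reads in woodrats against 1, 3 and 1 in lab rats. Counted among the 5, *Me3* reached 1 CPM in woodrats only, so it could only be called higher. The gene that was lower was *Rpia*, ribose-5-phosphate isomerase of the pentose phosphate pathway (log2 fold change -1.73, FDR = 0.00203). *G6pdx* and *Pgd* of that pathway, given above, lay in the same direction as *Rpia*.

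Of 23 genes of glutathione and cysteine handling, 3 were higher (13.0%, against 10.3% of all genes tested) and 4 lower (17.4%, against 9.71%). Their median log2 fold change was -0.13. Besides *Gpx5* and *Gpx6*, the called genes with the largest changes were gamma-glutamyltransferases, which cleave extracellular glutathione. *Ggt1* had 17, 59 and 87 reads in woodrats against 2, 1 and 0 in lab rats, whereas *Ggt5* had 1, 6 and 3 reads in woodrats against 58, 41 and 39 in lab rats. The related pair thus differed in opposite directions. Each of them reached 1 CPM in 1 species only, which fixed the direction in which it could be called.

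Of 16 tested genes of iron, heme and metal handling, 0 were higher and 5 lower (31.25%, against 9.71% of all genes tested). Their median log2 fold change was -1.03. No gene was higher in DESeq2 either, which called 6 lower, where it called 15.3% of all genes tested lower. In edgeR 10 of the 16 (62.5%) had an unadjusted p below 0.05, against 49.7% of all genes tested. The 5 lower genes included the heme synthesis enzymes *Urod* (log2 fold change -1.92, FDR = 0.00420) and *Alad* (log2 fold change -1.77, FDR = 0.00882). The iron importer *Slc11a2* (log2 fold change -1.82, FDR = 0.00933) was also among the 5. So was the brain metallothionein *Mt3*, with 4, 5 and 9 reads in woodrats against 28, 19 and 53 in lab rats. The erythroid markers given above moved the same way, and their part in the heme genes was not tested. Of 10 tested oxidant-producing enzymes, 0 were higher and 2 lower (20%, against 9.71% of all genes tested), with a median of -0.54. An unadjusted p below 0.05 in edgeR was reached by 5 of the 10 (50%, against 49.7% of all genes tested). DESeq2 called 1 higher and 2 lower, where it called 15.8% of all genes tested higher and 15.3% lower. *Xdh*, xanthine dehydrogenase, was at 31.4 ± 13.7 CPM (SD, n = 3) in woodrats against 269 ± 34 CPM (SD, n = 3) in lab rats (log2 fold change -3.09, FDR = 0.00101). *Ncf4*, a phagocyte oxidase subunit, had 3, 2 and 10 reads in woodrats against 48, 30 and 38 in lab rats (log2 fold change -3.07, FDR = 0.00321). The sum of leukocyte markers, mostly *Cd74* in lab rats, was also lower in woodrats, and the part of leukocytes in *Ncf4* was not tested.

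Among 18 selenoproteins and genes of selenocysteine synthesis edgeR called 0, and 9 had an unadjusted p below 0.05 (50%, against 49.7% of all genes tested). DESeq2 called 5, all lower in woodrats, where it called 15.3% of all genes tested lower. Their median log2 fold change was -0.63. Of 18 tested thioredoxin-fold and other redox proteins, 0 were higher and 1 lower in edgeR (5.56%, against 9.71% of all genes tested). An unadjusted p below 0.05 in edgeR was reached by 8 of the 18 (44.4%, against 49.7% of all genes tested). DESeq2 called 3 in each direction, where it called 15.8% of all genes tested higher and 15.3% lower. The gene called by edgeR was *Txndc17* (log2 fold change -1.54, FDR = 0.00319), and the median was -0.26.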

How the data were processed

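PolyA RNA of the foregut was sequenced from 3 woodrats and 3 lab rats with stranded libraries. Per the labels and the methods of the study, the authors trimmed read pairs with Trimmomatic, merged overlapping pairs, aligned them to the coding transcripts of mouse (GENCODE M7) by cross_match (the submitters' notes list the build mm9), counted reads on the correct strand, left out gene identifiers with many multiple alignments, and deposited raw counts of uniquely assigned reads per mouse gene. The files hold no genomic coordinates, and no sequences were used here.

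Kept were genes that reached 1 CPM in 3 or more animals (12603 of 15481). TMM factors and the quasi-likelihood F-test (method before version 4, prior count 0.125, species as the only term) were computed with edgeR 4.0.16 in R 4.3.3, after the study's own test, at an FDR of 0.01. The standard error is the size of the log2 fold change divided by the root of F. DESeq2 1.42.0 was an alternative, as were 3 other filters, 3 other scalings, edgeR's version 4 method, the replicate number as a block, each animal left out in turn and summed pairs of alike copies. The labels name separate animals. No pair of animals of one species agreed within sampling noise (chi-square per degree of freedom from 10.1 to 121). The scripts were tested on simulated counts.

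The rule for the 46 genes uses names only, but the group and the lists were drawn up with earlier results of these data known. Every one of the 46 is named or counted. From each further list at most 4 called genes are named, those with the largest log2 fold change of either sign. *Mt4*, which was not called, is named beside *Mt1* and *Mt2*. Pairs of alike copies (Mt1 and Mt2, Prdx1 and Prdx2, Fth1 and Ftl1) were also summed. Marker lists gave 7 summed levels per animal.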

Additional observations from a re-analysis of the deposited data

How the results depend on the processing

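Under the replicate block, 0 of the 46 genes were called lower, and the genes lost were *Blvra* (FDR = 0.0139), *Msra* (FDR = 0.0112), *Glrx3* (FDR = 0.0310) and *Sod2* (FDR = 0.0455). It also lowered the calls over all genes to 373 higher and 343 lower, and those over the further lists to 4 and 6. Animals with the same number correlated between -0.289 and -0.0881 in their deviations from the species mean, over 3 pairs. Such deviations are tied together within a species, so these values cannot show whether a number stands for a shared batch or day. The labels name none. DESeq2 called 7 of the 46 genes higher and 10 lower, 18 and 29 genes of the further lists, and 1986 and 1930 of all genes. An FDR below 0.05 gave 7 and 13, 22 and 36, and 2643 and 2383. Total counts only gave 810 genes called higher in all. *Sod2* also missed the threshold with the filter at 5 CPM (FDR = 0.0103), with genes read in every animal (FDR = 0.0106) and with DESeq2 size factors in edgeR (FDR = 0.0103). *Gpx3*, *Msrb3* and *Mt1* kept their call under every alternative except, for *Mt1*, the fits without lab rat 1 or 2 and the sum with *Mt2*. The cause of these shifts was not tested.

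With 1 animal left out, the 46 genes had from 3 to 4 higher and from 0 to 2 lower calls, the further lists from 3 to 15 and from 5 to 16, and all genes from 393 to 1357 and from 459 to 1269. Without both woodrat 1 and lab rat 3, a setting chosen after seeing the data, all genes had 855 higher calls, the further lists 11 lower calls, and 6 of the 7 called genes kept their call (all but *Sod2*).

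Some genes near a log2 fold change of 0 changed sign. Leaving out 1 animal gave ranges from -0.47 to 1.46 for *Hmox1*, -0.41 to 0.40 for *Gpx4*, -0.24 to 0.19 for *Prdx1*, -0.43 to 0.21 for *Prdx5*, -0.32 to 0.36 for *Prdx6*, -0.30 to 0.78 for *Srxn1*, -0.055 to 0.37 for *Txn2*, -0.42 to 0.44 for *Sod3*, -0.65 to 0.64 for *Glrx* and -0.31 to 0.26 for *Glrx5*. *Hmox1* was at 0.60 with the replicate block. *Prdx1* was at 0.0029 and *Glrx* at -0.024 with total counts only, and *Glrx* at -0.033 with upper-quartile factors. Without woodrat 1 and lab rat 3, *Gpx4* was at 0.044, *Prdx1* at 0.33, *Prdx5* at 0.28, *Sod3* at -0.47, *Glrx* at -0.0097, *Glrx5* at 0.22 and *Ftl1* at 0.13. Summing gave 1.15 in place of the value of *Mt2* and 0.55 in place of that of *Ftl1*.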
